A study of Mus musculus with 24 samples.

Results

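The genes described here are 35 genes of the unfolded protein response and the integrated stress response, given as a list of gene symbols and found in the deposited tables by exact symbol. All 35 were present among the 35492 symbols of the tables, and all 35 passed the filter of at least 1 TPM (a level scaled to transcript length and to the library total) in at least 3 libraries. They comprised 14 chaperones and folding factors of the endoplasmic reticulum (ER), 3 genes of ER-associated degradation, 4 genes for the sensors of the unfolded protein response and Xbp1, 6 regulators of the integrated stress response, 5 enzymes of amino acid and one-carbon metabolism and 3 amino acid transporter genes.

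RNA was sequenced from CD4+ CD62L+ naive T cells, sorted from the spleen and lymph nodes of C57BL/6J mice and plated on antibodies to CD3 and CD28. The cells of all 24 libraries were lipofected for 6 h, either with 2'3'-cGAMP, which binds and activates STING, or with a control dinucleotide, and were then polarized into TH1 cells with IL-12 and an antibody to IL-4, or into TH9 cells with TGF-β, IL-4 and an antibody to IFN-γ. They were collected at 16 h or 48 h, which gives 8 labels with 3 libraries each: TH1 or TH9, 16 h or 48 h, control or cGAMP. The study describes the libraries of a label as biological replicates from independent experiments, and the labels do not tie a library number to an experiment.

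When unfolded proteins accumulate in the ER, the sensors IRE1 (encoded by Ern1), ATF6 and PERK (Eif2ak3) are activated. IRE1 splices the Xbp1 transcript and, with ATF6, raises the transcription of chaperones and of the machinery that degrades misfolded proteins. PERK phosphorylates eIF2α, as do the kinases of the integrated stress response that sense amino acid shortage, viral RNA or haem deficiency, and this lowers general translation while the transcription factor ATF4 is made and induces genes of amino acid supply. Activated T cells use both arms as they enlarge and begin to secrete cytokines.

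The markers of the cells did not follow the labels. Tbx21, the TH1 lineage factor, exceeded Il9 in 8 of the 12 TH1-labelled libraries, but also in 4 of the 12 TH9-labelled ones. Irf7, a gene induced by type I interferon, which STING activation is known to elicit, had a median of 4.80 TPM under the control labels (0.185 to 77.6, 12 libraries) and of 15.1 under the cGAMP labels (1.59 to 115, 12 libraries). Its values overlapped in each of the 4 pairs of labels, as under TH9 at 48 h, where they were 0.185, 29.0 and 3.39 with control and 11.3, 1.59 and 16.6 with cGAMP. Libraries are therefore named by their labels throughout, no library was regrouped, and no comparison could be repeated without the doubted libraries, because the doubt covers every label. The summed TPM of 8 T cell markers was 168 to 1886 per library. The sums over B cell markers were 0.708 to 9.51, over myeloid markers 0.557 to 8.69, over CD8 T cell markers 1.13 to 7.83, over NK cell markers 0.365 to 4.31, over plasma cell markers 0.303 to 14.3 and over erythroid markers 0.161 to 6.89. Their part in the results was not tested. In bulk RNA, fewer cells of a type and less RNA per cell cannot be told apart.

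TPM values also differed in overall scale between libraries, since the 20 most abundant symbols took 19.7% to 90.2% of all TPM. Every library was therefore divided by a scale factor, the median ratio to the average library over 7918 genes. The factor ran from 0.77 to 2.00 in the 12 libraries labelled 16 h and from 0.25 to 1.00 in the 12 labelled 48 h. Levels below are such rescaled TPM.

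Some of these genes carry in their promoters the elements through which both arms are known to act, and these are shown because the levels of the genes are described below. RefSeq promoters (GRCm38.p6, 250 bases before to 50 after each gene's start) were matched by symbol for 31 of the 35 genes. The ER stress response element, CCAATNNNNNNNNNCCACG on either strand, is the element known for ATF6 and XBP1. It was found in 7 of the 31 promoters, those of Hspa5, Calr, Canx, Creld2, Dnajc3, Hsp90b1 and Pdia6, and in 39 of all 32851 promoters of the same length (0.119%). All 7 belong to the chaperones and folding factors. The C/EBP-ATF response element, TGATGNAA on either strand, is the element known for ATF4. It was found in 5 of the 31 promoters, those of Asns, Chac1, Herpud1, Slc7a11 and Trib3, and in 1304 of all promoters (3.97%). No promoter of the list held both, and a match is a stretch of letters and not a measured site.

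The promoters of 7 genes that the results below turn on are printed from 5′ to 3′ on the strand of the gene, for Hspa5 and Asns the 250 bases before the start and for the others up to 40 bases on either side of the matches, with the matched element in capitals. Hspa5 (chr2:34771840-34772089, plus strand) has the ER stress response element 65 to 47 bases before its RefSeq start, and Hsp90b1 has 1 copy in each orientation. Bases printed for Hspa5, Hsp90b1 and Asns reach into the genes by their GENCODE coordinates, which are the kind given for genes below.
Hspa5: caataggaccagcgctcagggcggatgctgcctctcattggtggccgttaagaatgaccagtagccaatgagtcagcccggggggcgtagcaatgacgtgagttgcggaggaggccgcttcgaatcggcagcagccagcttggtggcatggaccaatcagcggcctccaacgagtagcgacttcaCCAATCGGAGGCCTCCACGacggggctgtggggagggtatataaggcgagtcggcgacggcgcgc
Calr (chr8:84847035-84847133, minus strand): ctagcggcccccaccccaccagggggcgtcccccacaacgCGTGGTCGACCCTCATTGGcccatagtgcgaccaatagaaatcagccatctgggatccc
Creld2 (chr15:88819480-88819578, plus strand): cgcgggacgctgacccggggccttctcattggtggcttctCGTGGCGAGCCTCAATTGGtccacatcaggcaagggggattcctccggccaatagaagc
Hsp90b1 (chr10:86705493-86705694, minus strand): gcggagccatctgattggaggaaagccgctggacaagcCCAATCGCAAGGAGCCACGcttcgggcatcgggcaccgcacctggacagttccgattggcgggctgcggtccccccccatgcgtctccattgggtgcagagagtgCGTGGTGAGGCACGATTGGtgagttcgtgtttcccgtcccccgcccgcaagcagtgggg
Asns (chr6:7693210-7693459, minus strand) has the C/EBP-ATF response element 23 to 16 bases before its RefSeq start, and Chac1 and Herpud1 have it on the other strand.
Asns: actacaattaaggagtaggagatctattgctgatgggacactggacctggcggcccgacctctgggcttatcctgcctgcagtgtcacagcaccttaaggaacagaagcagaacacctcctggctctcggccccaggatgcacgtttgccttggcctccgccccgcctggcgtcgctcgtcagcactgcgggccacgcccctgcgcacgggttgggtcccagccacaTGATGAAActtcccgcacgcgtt
Chac1 (chr2:119351009-119351096, plus strand): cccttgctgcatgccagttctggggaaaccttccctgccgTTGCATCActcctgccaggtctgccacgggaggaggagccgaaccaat
Herpud1 (chr8:94386277-94386364, plus strand): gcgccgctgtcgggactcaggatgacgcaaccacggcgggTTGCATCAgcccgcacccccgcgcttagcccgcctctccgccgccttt

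The most abundant of the 35 genes were the lectin chaperones Calr and Canx and the heat shock family chaperones Hsp90b1 and Hspa5. Calr, calreticulin (chromosome 8, 84841850 to 84846934, minus strand), had a median of 402 rescaled TPM and ran from 162 to 625. Hsp90b1, the ER member of the HSP90 family, had a median of 369 and ran from 246 to 730. Canx, calnexin, ran from 194 to 490 around 237. Hspa5 (chromosome 2, 34771970 to 34777547, plus strand), which encodes BiP, the ER HSP70 that also holds the sensors inactive, ran from 77.6 in library 3 labelled TH9 48 h control to 359 in library 1 labelled TH9 16 h cGAMP, with a median of 204. Calr and Hsp90b1 overlap over most of their ranges, and so do Canx and Hspa5, so their order is not separated by the spread over libraries.

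The disulfide isomerases and the co-chaperones of BiP lay lower. Pdia3 had a median of 148 (79.0 to 229), Pdia6 of 59.0 (36.1 to 83.4) and Pdia4 of 49.7 (37.4 to 68.6). Pdia4 had the smallest spread of the 35, an SD of 0.22 on the log2 scale, and 98.3% of all tested genes varied more. Among the J-domain co-chaperones, Dnajb11 had a median of 34.1 (12.9 to 49.2), Dnajc3 of 19.1 (9.74 to 25.0) and Dnajb9 of 5.21 (2.73 to 8.20). Hyou1, the nucleotide exchange factor of BiP, had a median of 38.9 (20.0 to 56.9). The small ER stress proteins Manf, Sdf2l1 and Creld2 had medians of 47.9 (21.4 to 77.6), 22.0 (6.38 to 40.1) and 14.0 (4.40 to 21.4). For 7 of these 14 genes, Hspa5, Pdia3, Pdia6, Dnajb11, Sdf2l1, Manf and Hyou1, the lowest of the 24 values was that of library 3 labelled TH9 48 h control.

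Of the degradation genes, Edem1, a mannosidase-like protein that marks misfolded glycoproteins, had a median of 91.9 (53.3 to 196). Herpud1, a scaffold of the degradation complex, had one of 22.0 (13.8 to 32.7), and Sel1l, the adaptor of its ubiquitin ligase, one of 15.2 (9.06 to 29.7). The 3 sensors were all low: Eif2ak3 8.93 (1.82 to 18.8), Atf6 5.53 (3.05 to 10.4) and Ern1 2.16 (0.682 to 6.41). Xbp1 (chromosome 11, 5520659 to 5525893, plus strand), the transcription factor made from the transcript that IRE1 splices, had a median of 43.7 and ran from 23.6 to 104. The values are sums per gene, so its spliced form was not measured here.

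Atf4 was the most abundant regulator of the integrated stress response, with a median of 90.1 (45.5 to 147). Ddit3, the pro-apoptotic factor CHOP, had a median of 13.9 (5.34 to 67.9). The annotation holds 2 overlapping genes of that name, so its value may be split. Ppp1r15a, the phosphatase subunit GADD34 that reverses eIF2α phosphorylation, had a median of 12.2 (4.03 to 30.4). Sesn2, a leucine sensor that restrains mTORC1, had one of 3.53 (1.25 to 6.34). Trib3, a pseudokinase that restrains ATF4 (chromosome 2, 152337422 to 152344032, minus strand), had a median of 3.11 (0.502 to 12.3), and Chac1, a glutathione-degrading enzyme induced by ATF4, one of 1.05, from a listed 0 in 1 library to 4.32. These last 2 are near the lower end of what TPM can order, as no read counts are given.

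The enzymes of serine synthesis and one-carbon metabolism were expressed at like levels: Phgdh 104 (53.9 to 172), Psat1 81.0 (49.7 to 140), Shmt2 64.2 (36.9 to 99.5) and Mthfd2 45.7 (20.5 to 72.7). Asns, asparagine synthetase (chromosome 6, 7675169 to 7693254, minus strand), stood apart from them in its range, with a median of 15.9 and values from 3.09 to 49.5. The transporter chains Slc3a2 and Slc7a5, which pair to import large neutral amino acids, had medians of 60.9 (32.0 to 108) and 11.0 (5.80 to 17.7). Slc7a11, the cystine importer, had one of 3.60 (1.36 to 9.56).

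**Figure D1:**
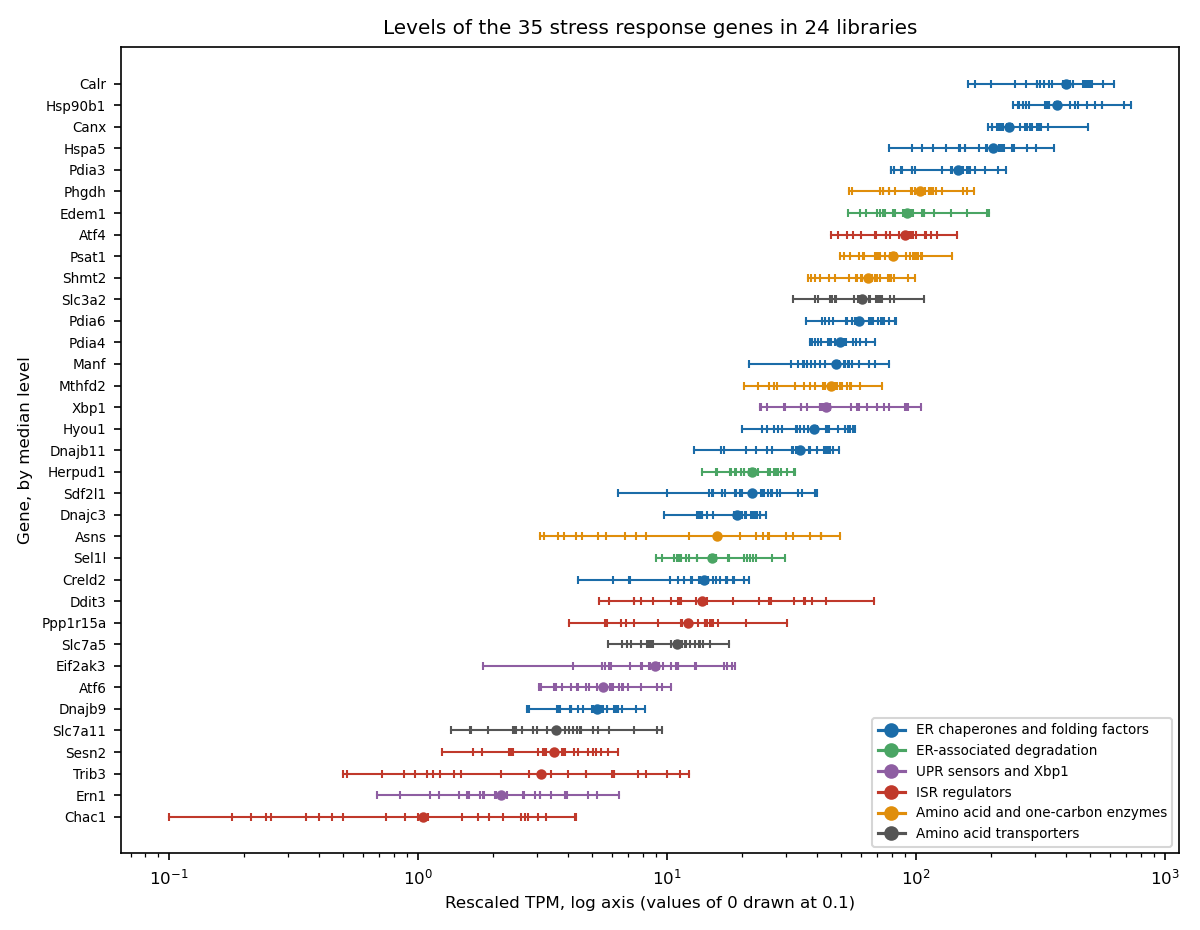
Rescaled TPM on a log axis for each of the 35 genes in the 24 libraries (ticks), with the range (line) and the median (dot), coloured by role. Calr leads with a median of 402 and Chac1 is last with 1.05, and Asns, Trib3 and Ddit3 have visibly wider ranges than the chaperones.

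The 35 genes as a whole were no more variable than other genes. Their median SD over the 24 libraries was 0.45 on the log2(rescaled TPM + 1) scale, against 0.49 over all 15720 genes tested, and 14 of the 35 lay above that all-gene median. Asns, with an SD of 1.29, and Trib3, with 1.03, were the 2 above 1, a mark that 8.12% of all tested genes passed. Ddit3 followed with 0.95 and Chac1 with 0.75. These 4 are targets of ATF4, whose own transcript had an SD of 0.43. The labels took up a median of 44.9% of a gene's variance (19.2% for Sesn2 to 73.2% for Pdia6), against 37.3% over all genes tested and 30.4% for 8 groups of 3 with equal means.

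Asns levels spread widely within labels. In the libraries labelled TH1 16 h the values were 8.26, 3.86 and 4.30 with control and 3.09, 19.6 and 25.6 with cGAMP. Under the label TH9 16 h they were 41.4, 30.1 and 6.78 with control and 3.20, 5.27 and 5.68 with cGAMP. Libraries of 1 label thus lay at opposite ends of the range. As the markers did not follow the labels, this spread cannot be read as one between replicates of a condition. The labelled TH1 48 h libraries had 32.2, 41.5 and 37.6 with control and 24.3, 7.52 and 4.56 with cGAMP, and those labelled TH9 48 h had 12.3, 3.65 and 22.8 with control and 25.7, 41.6 and 49.5 with cGAMP. On the log scale the widest step in the ordered values was from 12.3 to 19.6, a 1.59-fold step with 12 libraries below it (median 4.91) and 12 above it (median 31.1). The next lower step, from 8.26 to 12.3, was nearly as wide (1.49-fold), so the division into low and high libraries is a description only. The libraries above it were 0, 2, 2 and 0 of 3 in the order TH1 control, TH1 cGAMP, TH9 control and TH9 cGAMP at 16 h, and 3, 1, 1 and 3 of 3 in the same order at 48 h.

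The 12 libraries with the highest Asns were also the 12 with the highest Trib3 and the 12 with the highest Xbp1. Chac1, Ddit3 and Sel1l shared 11 of their 12 highest libraries with Asns, and Atf4, Ern1 and Eif2ak3 shared 10. At the other end, Calr and Dnajb11 shared 1 of 12, and Dnajc3, Creld2 and Hyou1 shared 2. The median over all genes tested was 6, with 10 or more shared by 11.2% of genes and 2 or fewer by 8.42%, and among the other 34 genes of the list these shares were 23.5% (8 genes) and 14.7% (5 genes). Sharing 10 or more were 3 of these 34 with no rescaling (8.82%, against 4.76% of all genes) and 6 in upper-quartile scaling (17.6%, against 8.13%). In deposited TPM with no rescaling the shared numbers were 12 for Trib3, 11 for Chac1, 10 for Ddit3, 8 for Xbp1, 8 for Sel1l and 6 for Atf4, and 4 for Calr and for Dnajb11. The libraries are shared between genes here, so these counts describe the 24 libraries and are given with no test. Over the 24 libraries, the Pearson r of log2 levels with Asns was 0.83 for Trib3, 0.82 for Xbp1, 0.83 for Chac1 and 0.74 for Ddit3. In the 12 libraries below the widest Asns step r was -0.24, 0.02, -0.07 and -0.31, and in the 12 above it 0.00, 0.10, 0.11 and -0.08. Within either side these genes thus showed no clear rise with Asns.

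**Figure D2:**
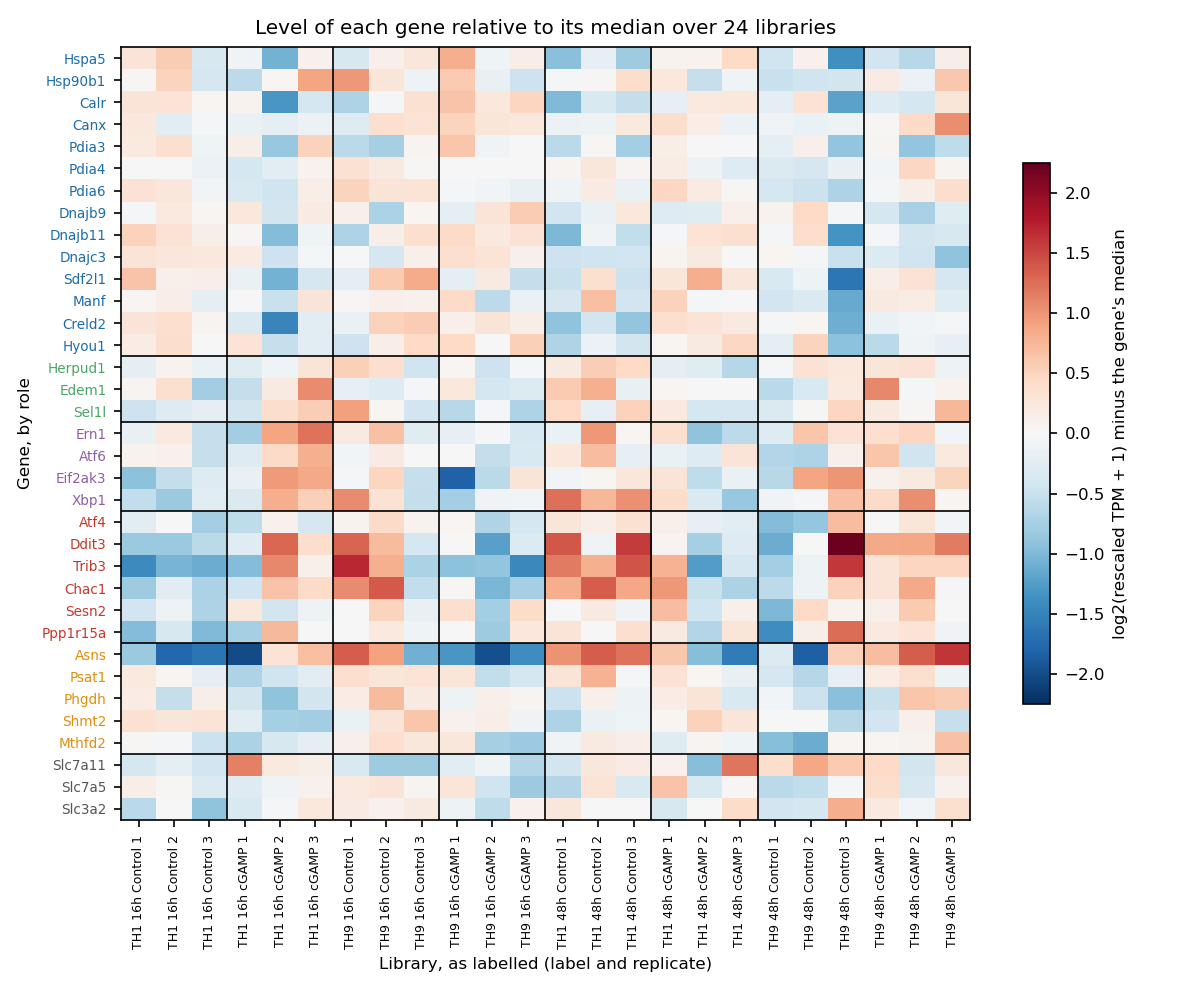
log2(rescaled TPM + 1) of the 35 genes (rows, coloured and ordered by role) minus each gene's median, in the 24 libraries (columns, by label and replicate). Asns, Trib3, Ddit3 and Xbp1 are high in the same columns, and in columns such as TH9 48h Control 3 and TH1 16h cGAMP 2 the chaperone rows are low while the rows of the regulators are high.

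Opposed sets of genes appeared in the correlations over the 24 libraries. Of 595 pairs, 127 (21.3%) had a Pearson r above 0.5 and 64 (10.8%) one below -0.5, against 5.48% and 4.61% of pairs of all genes tested. The 3 most alike pairs were Calr and Dnajb11 (r = 0.92, Spearman's rho = 0.90), Hspa5 and Calr (r = 0.89, rho = 0.86), and Calr and Hyou1 (r = 0.88, rho = 0.88). Each of these chaperone pairs kept its sign in the 12 libraries labelled 16 h (0.96, 0.85 and 0.91) and in the 12 labelled 48 h (0.89, 0.93 and 0.86). Without the 2 libraries farthest from the median of the first gene, r was 0.88, 0.83 and 0.86.

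The most opposed pairs set chaperones against Ddit3, Xbp1 and Trib3. For Dnajb11 and Ddit3 r was -0.84, for Calr and Xbp1 -0.82, and for Dnajb11 and Trib3 -0.82 (rho of -0.76, -0.82 and -0.79). These values depended on the library scaling: with the upper quartile as the scale they were -0.72, -0.74 and -0.75, and in deposited TPM with no rescaling they were 0.06, 0.34 and -0.16. Within the 12 libraries labelled 16 h they were -0.81, -0.85 and -0.83, and within the 12 labelled 48 h -0.84, -0.76 and -0.79. They did not all hold within the 12 libraries below the widest Asns step, where r was 0.34, -0.36 and -0.02. In the 12 libraries above that step r was -0.84, -0.66 and -0.70. Without the 2 libraries farthest from the median of the first gene they were -0.78, -0.88 and -0.80.

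By role, the regulators of the integrated stress response had the highest median r, 0.71, with all 15 pairs above 0. That order held in upper-quartile scaling (0.64, followed by 0.53 for the sensors with Xbp1) but not with no rescaling, where the regulators had 0.73, the chaperones 0.87, the degradation genes 0.86 and the enzymes 0.83. The chaperones had a median r of 0.40, with 72 of 91 pairs above 0. Pairs of a chaperone with a regulator of the integrated stress response had a median of -0.31, with 26 of 84 above 0, and that median was 0.47 in deposited TPM with no rescaling. Of the chaperones, Pdia4, Hsp90b1, Dnajb9 and Canx had the lowest r with Hspa5 (-0.00, 0.22, 0.24 and 0.31), but 0.83, 0.81, 0.81 and 0.85 with no rescaling. Among the enzymes, Shmt2 had r of 0.57 with Hspa5, while Psat1 and Mthfd2 had 0.09 and 0.08. Edem1 and Atf6 were close to each other (r = 0.86) and had r of -0.04 and -0.02 with Hspa5. All these r come from the same 24 libraries, which share labels and scale factors, and the scale factor itself had r of 0.16 with Hspa5 and -0.18 with Trib3.

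**Figure D3:**
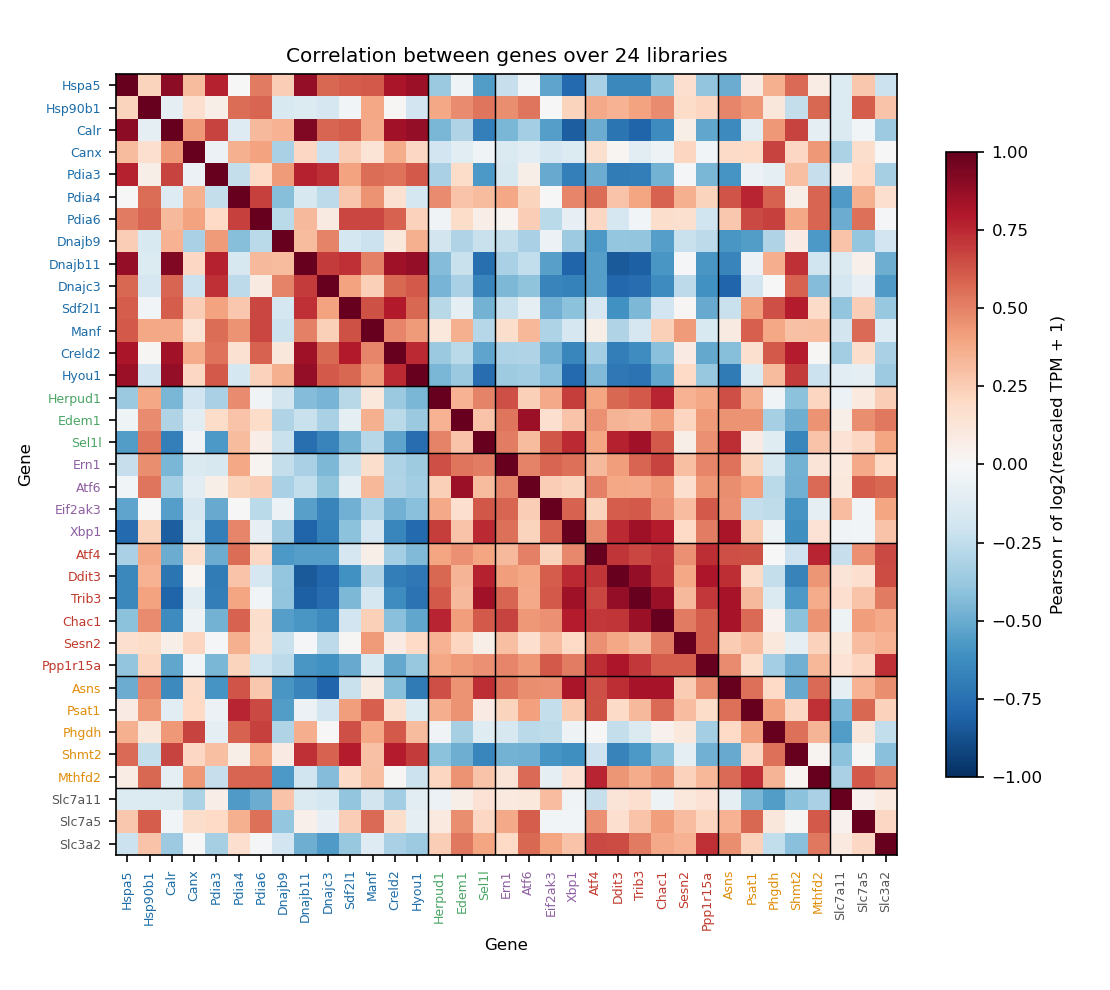
Pearson r of log2(rescaled TPM + 1) over the 24 libraries for every pair of the 35 genes, ordered and coloured by role, from blue (negative) to red (positive). The block of the integrated stress response regulators is red throughout (median 0.71), and its overlap with the chaperones is mostly blue (median -0.31).

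A ratio of genes within a library does not depend on its scale factor. Per 1000 TPM of Hspa5, Asns ran from 12.7 in library 2 labelled TH1 16 h control to 321 in library 3 labelled TH1 48 h control, a 25.3-fold range. Xbp1 ran from 70.2 to 983 (14.0-fold), Ddit3 from 24.2 to 875 (36.1-fold) and Trib3 from 2.08 to 146 (70.1-fold). The highest Ddit3 and Trib3 ratios were both in library 3 labelled TH9 48 h control, whose Hspa5 was the lowest of the 24, while the other 2 libraries of that label had Ddit3 ratios of 39.4 and 63.7. Without that library the Ddit3 ratio ran up to 371 (15.3-fold) and the Trib3 ratio up to 85.2 (41.0-fold), while the ranges of Asns and Xbp1 were as before.

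**Figure D4:**
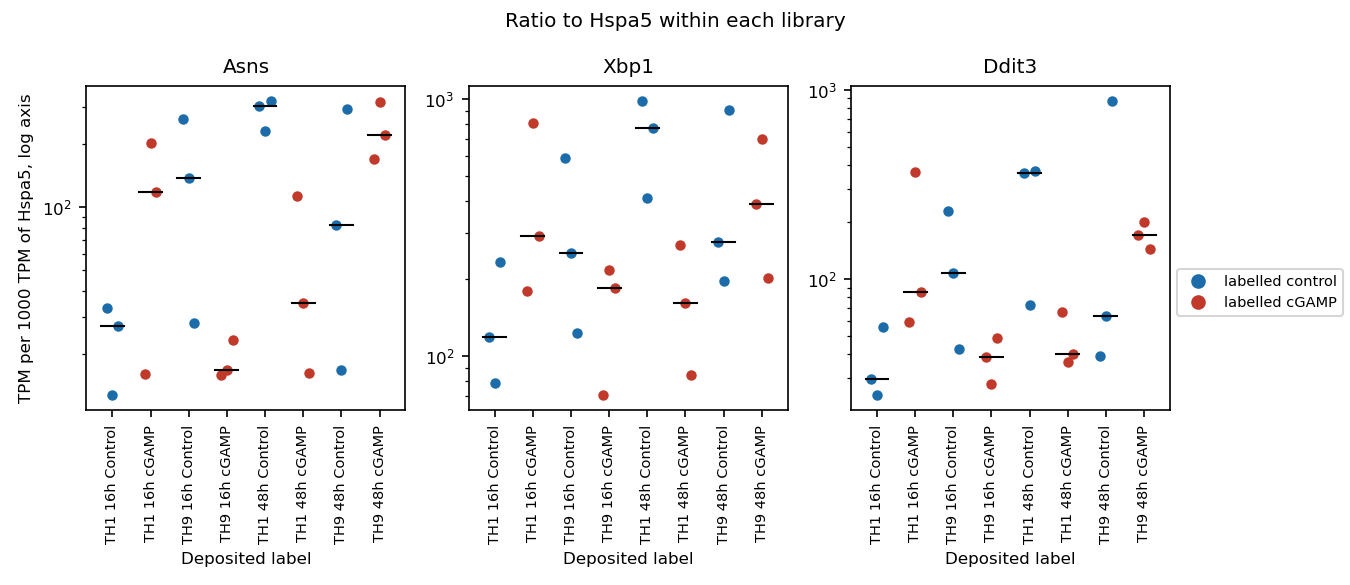
TPM of Asns, Xbp1 and Ddit3 per 1000 TPM of Hspa5 in each library, on log axes, by deposited label (points, blue for labelled control and red for labelled cGAMP, with a line at the median of 3). Libraries of 1 label lie far apart in several labels, as for Asns in TH1 16h cGAMP, where they run from 16.0 to 202.

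The comparison of cGAMP with control was designed to show what STING activation does in TH1 and TH9 cells. As neither Irf7 nor the lineage markers followed the labels, it compares libraries as labelled here and cannot answer that question, and a count of 0 does not show that the genes did not respond. For the same reason, the SE and p-values below rest on the spread within labels. That spread may hold differences between conditions besides those between replicates. With limma on log2(rescaled TPM + 1) and Benjamini-Hochberg adjustment over 15720 genes, no member of the list passed an adjusted p of 0.05 within any label pair: 0 of 35 in TH1 at 16 h (background 0.00636% of genes called, 1 gene), and 0 of 35 in TH9 at 16 h, TH1 at 48 h and TH9 at 48 h (background 0% each). Unadjusted p-values under 0.05 were found for 5, 6, 9 and 9 of the 35, and for 1651, 1193, 2249 and 1155 of all genes. The median log2 fold change of the 35 was -0.05, -0.34, -0.07 and 0.33, against 0.12, -0.03, -0.00 and 0.01 over all genes, and 17, 10, 16 and 27 of the 35 lay above 0. In upper-quartile scaling the medians were -0.22, -0.60, 0.11 and 0.19, with medians over all genes of -0.02, -0.25, 0.11 and -0.08, and as single libraries were left out those of TH1 ran from -0.16 to 0.11 at 16 h (above 0 without control library 1 or 2 or cGAMP library 1 or 2) and from -0.20 to 0.01 at 48 h (above 0 without cGAMP library 2). No direction of the 35 genes as a whole is therefore given for TH1 at either time.

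Among the libraries labelled TH1 at 16 h, the log2 fold change with cGAMP was above 0 for 1 of the 14 chaperones (median -0.35), 1 of the 5 enzymes (median -0.48) and all 6 regulators of the integrated stress response (median 0.77, with 5 of 6 above 0 under either other scaling), none past the threshold. Shmt2, the mitochondrial serine hydroxymethyltransferase, was at 81.7, 77.5 and 79.2 in the control libraries and at 53.7, 37.9 and 36.9 in those labelled cGAMP. The groups did not overlap, and the log2 fold change was -0.90 (SE 0.25, n = 3 against 3, limma adjusted p = 0.47). Creld2 was at 17.3, 18.6 and 14.7 with control and at 11.0, 4.40 and 11.7 with cGAMP. It did not overlap either, with a log2 fold change of -0.92 (SE 0.31, limma adjusted p = 0.47). Of the 35 genes, 10 did not overlap between these labels (4 of them higher with cGAMP), against 20.1% of all genes tested. Ddit3, Trib3 and Eif2ak3 were among those 4, with log2 fold changes of 1.23, 1.28 and 1.13, and the fourth was Slc7a11 with 0.84.

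Under the label TH9 at 16 h, none of the 6 regulators (median -0.80) or 5 enzymes (median -0.56) had a log2 fold change above 0 under any scaling, while 8 of the 14 chaperones did (5 in upper-quartile scaling). Asns was at 41.4, 30.1 and 6.78 with control and at 5.68, 3.20 and 5.27 with cGAMP, a log2 fold change of -1.95 (SE 0.71, n = 3 against 3, limma adjusted p = 0.55). The groups were separated by the distance from 5.68 to 6.78, so control library 3 lay close to those labelled cGAMP. Trib3 was at 12.3, 6.15 and 1.49 with control and at 1.15, 1.22 and 0.502 with cGAMP, a log2 fold change of -1.68 (SE 0.62, limma adjusted p = 0.55). Here 7 of 35 genes did not overlap, 0 of them higher with cGAMP, against 12.4% of all genes: Asns, Trib3, Atf4, Pdia4, Pdia6, Phgdh and Psat1.

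In the libraries labelled TH1 at 48 h, 11 of the 14 chaperones (median 0.52) and 1 of the 6 regulators (median -0.73) had log2 fold changes above 0, and these medians kept their signs in upper-quartile scaling (0.69 and -0.58) and with no rescaling (0.33 and -0.76). Creld2 was at 7.04, 10.2 and 7.13 with control and at 18.5, 17.5 and 16.3 with cGAMP, a log2 fold change of 1.03 (SE 0.31, n = 3 against 3, limma adjusted p = 0.26). Herpud1 was at 25.5, 32.7 and 30.3 with control and at 18.7, 18.0 and 13.8 with cGAMP, a log2 fold change of -0.78 (SE 0.25, limma adjusted p = 0.26). Both genes were without overlap between the labels. Altogether 12 of 35 did not overlap (7 higher with cGAMP), against 18.2% of all genes. Hspa5, Calr, Dnajb11, Dnajc3 and Hyou1 were higher by 0.84, 0.72, 0.77, 0.53 and 0.64, while Xbp1, Trib3 and Asns had -1.26, -1.42 and -1.84 on the log2 scale.

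Under the TH9 label at 48 h, 10 of the 14 chaperones (median 0.28), 6 of the 6 regulators (median 0.41) and 4 of the 5 enzymes (median 0.73) had log2 fold changes above 0. Pdia6 was at 44.8, 41.8 and 36.1 with control and at 57.4, 64.9 and 77.9 with cGAMP, a log2 fold change of 0.69 (SE 0.19, n = 3 against 3, limma adjusted p = 0.60). Mthfd2, the mitochondrial methylenetetrahydrofolate dehydrogenase, was at 23.1, 20.5 and 47.1 with control and at 46.8, 48.2 and 72.7 with cGAMP, a log2 fold change of 0.93 (SE 0.30, limma adjusted p = 0.63). Pdia6 did not overlap and Mthfd2 did, through control library 3. Without overlap were 8 of 35 genes (7 higher), against 8.7% of all genes, and the median of the 35 ran from 0.19 to 0.51 as single libraries were left out, the highest without control library 3.

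**Figure D5:**
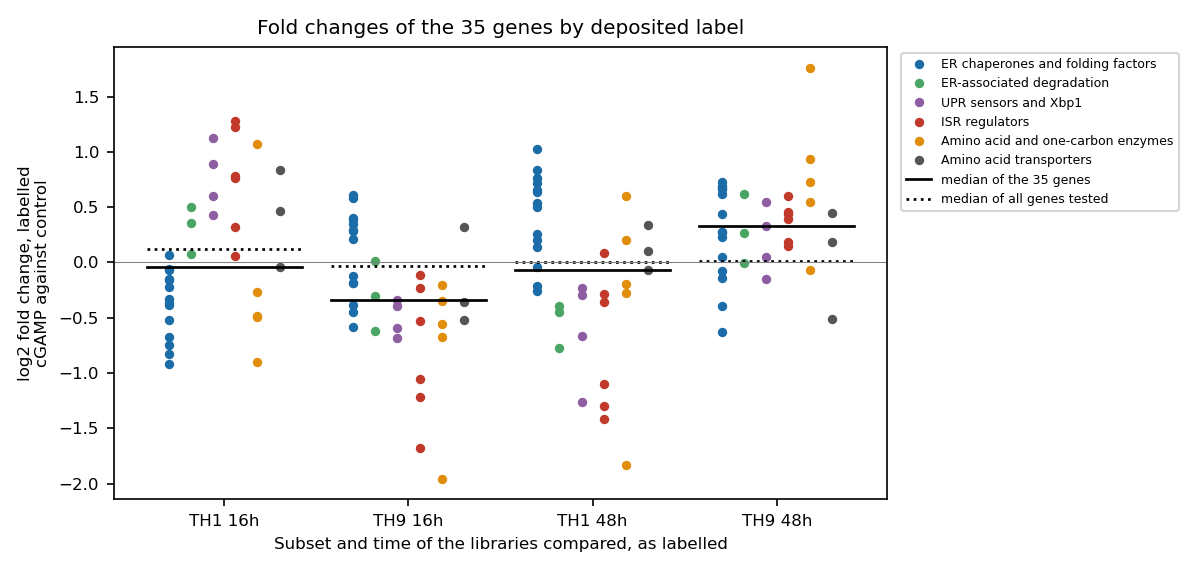
log2 fold change of labelled cGAMP against control libraries for the 35 genes (points, coloured by role) in the 4 pairs of labels, with the median of the 35 (solid line) and of all genes tested (dotted line). None passes the threshold, and chaperones and regulators lie on opposite sides in TH1 16h and TH1 48h, and the medians of the 35 are -0.05, -0.34, -0.07 and 0.33.

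Over all 24 libraries, 12 labelled cGAMP against 12 labelled control, 0 of 35 genes passed (background 0%). An unadjusted p under 0.05 was found for 0 of 35 and for 396 of all 15720 genes. The smallest p-values were those of Herpud1, which ran from 13.8 to 28.0 around a median of 20.4 with cGAMP and from 15.9 to 32.7 around 25.7 with control, and of Canx, at 203 to 490 around 271 with cGAMP and 194 to 306 around 221 with control. The groups overlapped for both, and the log2 fold changes were -0.25 (SE 0.12) for Herpud1 and 0.21 (SE 0.12) for Canx. Between 12 libraries labelled TH9 and 12 labelled TH1, 0 of 35 passed as well (background 0%), with 0 of 35 and 448 of all genes at an unadjusted p under 0.05. Canx ran from 194 to 490 around 284 under TH9 and from 202 to 311 around 217 under TH1, a log2 fold change of 0.23 (SE 0.12), and Creld2 from 6.05 to 21.4 around 14.0 and from 4.40 to 18.6 around 13.2, a log2 fold change of 0.23 (SE 0.16). In both comparisons the ranges of the groups overlapped.

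Between 48 h and 16 h, 232 of all genes were called (background 1.48%; 174 of them higher at 48 h, and 98 of 230 in upper-quartile scaling), and 0 of the 35 genes, with 3 of the 35 and 2810 of all genes at an unadjusted p under 0.05. Dnajc3, which binds BiP and inhibits PERK, ran from 9.74 to 22.1 around 14.6 in the 12 libraries labelled 48 h and from 13.6 to 25.0 around 21.2 in the 12 labelled 16 h. Its log2 fold change was -0.35 (SE 0.11, limma adjusted p = 0.094), and it passed when library 2 labelled TH1 16 h cGAMP was left out (-0.40, limma adjusted p = 0.041). Asns ran from 3.65 to 49.5 around 25.0 at 48 h and from 3.09 to 41.4 around 6.23 at 16 h, a log2 fold change of 1.04 (SE 0.36, limma adjusted p = 0.14). Both pairs of ranges overlap. Of the 14 chaperones 1 had a log2 fold change above 0 (median -0.22), and of the 6 regulators 6 did (median 0.35, but -0.63 with no rescaling). This comparison is the one most bound to scaling, because the scale factors differ between the labelled times: with no rescaling 30 of the 35 genes were called, 1 of 35 lay above 0, and the median of all genes was -0.81. It also compares libraries only as labelled, and the labels of time were not checked against any marker of time.

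Whether the fold change of labelled cGAMP against control libraries differed between labelled subsets or times was tested as a difference of effects. Effects here are log2 fold changes by label. As the markers did not follow the labels, they cannot be read as effects of cGAMP in those cells. These tests use the same libraries as the comparisons above. Between TH9 and TH1, 0 of 35 passed (background 0%), with 0 of 35 and 509 of all 15720 genes at an unadjusted p under 0.05. Eif2ak3 had effects of 1.13 under the label TH1 16 h, -0.69 under TH9 16 h, -0.23 under TH1 48 h and -0.15 under TH9 48 h. The difference was -0.87 (SE 0.47). Canx had -0.16, 0.22, 0.14 and 0.62 in the same order, a difference of 0.42 (SE 0.24). Between 48 h and 16 h, 0 of 35 passed (background 0%), with 8 of 35 and 1384 of all 15720 genes at an unadjusted p under 0.05. Pdia6 had effects of -0.38, -0.45, 0.26 and 0.69 in that order, below 0 in both pairs of labels at 16 h and above 0 in both at 48 h, and the difference was 0.89 (SE 0.19, limma adjusted p = 0.45). In upper-quartile scaling it was 1.16 and passed (limma adjusted p = 0.044). Creld2 had -0.92, -0.13, 1.03 and 0.28, a difference of 1.18 (SE 0.31, limma adjusted p = 0.45).

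Other genes of both pathways, 47 of the unfolded protein response and 40 of the integrated stress response that passed the filter, gave no call in any of these comparisons. Several had wide ranges and their highest libraries in common with Asns. Ero1l, the oxidase that recharges disulfide isomerases, ran from 29.9 to 542 rescaled TPM and P4hb, a protein disulfide isomerase, from 62.2 to 384. Of their 12 highest libraries 12 and 11 were among the 12 highest for Asns. Ddit4, which restrains mTORC1 under stress, ran from 1.94 to 106, Eif4ebp1, a repressor of cap-dependent translation, from 9.36 to 61.5, and Cth, the last enzyme of cysteine synthesis, from 0.521 to 15.7, and all 3 shared 12 of 12. Sharing 10 or more were 19 of the 47 genes (40.4%) and 13 of the 40 (32.5%), against 11.2% of all genes. With no rescaling they were 2 of the 47 (4.26%) and 10 of the 40 (25%), against 4.76% of all genes, and in upper-quartile scaling 9 (19.1%) and 12 (30%), against 8.13%. Genes at the other end included Wars, the cytosolic tryptophanyl-tRNA synthetase, and Eif2ak1, the haem-sensing eIF2α kinase, which shared 1 of 12 each, as Calr did.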

How the data were processed

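RNA from 24 libraries was prepared with a stranded total RNA kit after removal of rRNA and read as single ends. Per the labels and the study's methods, reads went through Trimmomatic and kallisto with mm10, and the authors ran DESeq2 on the result. Tool versions and the transcript annotation were not given in the sources used here. What the authors deposited are TPM for each gene symbol. TPM keep no depth, so the depth behind each value is unknown.

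Libraries were grouped by the deposited labels alone. TPM were divided by the median ratio to the geometric mean library over the 7918 genes at 1 TPM or more in all 24 libraries. Genes reaching 1 TPM in 3 or more libraries (15720) were tested on log2(rescaled TPM + 1), which understates the change of low genes. The test was that of limma 3.58.1 (R 4.3.3) with an intensity trend, fitted once to the means of all 8 labels, two-sided, at a Benjamini-Hochberg adjusted p under 0.05, and it was tested on simulated data. For each comparison the 2 listed genes with the smallest p are named with their values, as are the 3 pairs with the highest correlation. The 3 lowest pairs, the ratios, the counts of shared highest libraries, the correlations within subsets of the libraries, Irf7 and the genes named outside the list were singled out after values were seen. The 35 genes, the other gene lists and the tests were chosen with earlier results of these data known. Replicate numbers were not used to pair libraries in the main fit. Alternatives were other scalings, pseudocounts, filters, a fit of the compared libraries alone, a replicate block and leaving out each library. Gene coordinates are those of GENCODE for GRCm38 (mm10), and promoters those of RefSeq. No 2 libraries were identical (0 pairs).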

Additional observations from a re-analysis of the deposited data

How the results depend on the processing

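The sign of each of the 18 named fold changes was the same under every alternative run. These 18 were picked by their small p in the main fit, and the alternatives use the same libraries. Kept signs are therefore no independent support. The medians of the 35 genes moved with scaling, and the cause was not tested. In deposited TPM with no rescaling the median log2 fold change was -0.25 (TH1 16 h), -0.59 (TH9 16 h), -0.26 (TH1 48 h), 0.97 (TH9 48 h) and -1.05 (48 h against 16 h, with 30 of 35 called), and that of the differences of effects was 0.47 (TH9 minus TH1) and 0.78 (48 h minus 16 h). In upper-quartile scaling these were -0.22, -0.60 and 0.11 for the first 3, and -0.16 and 0.55 for the differences, with 1 of 35 called (Pdia6, difference of effects between times). With no rescaling the median correlation among chaperones was 0.87 and of chaperones with regulators of the integrated stress response 0.47, and the labels took up a median of 63.6% of the variance. Leaving out single libraries gave medians of -0.16 to 0.11 for TH1 16 h, of -0.20 to 0.01 for TH1 48 h, of 0.19 to 0.51 for TH9 48 h (highest without control library 3) and of 0.10 to 0.30 for the difference of effects between times (lowest without library 1 labelled TH1 48 h cGAMP), and 0 to 1 genes of the 35 called between 48 h and 16 h.

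Over all genes, the calls between 48 h and 16 h numbered 232, and 10198 with no rescaling, 132 with no filter and 144 with a pseudocount of 10. With no filter 20 genes were called for cGAMP in TH9 at 48 h and 4 in TH1 at 16 h. With the replicate block, the calls between 48 h and 16 h were 165, that in TH1 at 16 h was lost, and 0 of the 35 genes were called in any comparison. The same-numbered libraries did not deviate together (r of -0.19 to 0.05 over 12 pairs, none above 0.1). These are deviations from the means of labels that the markers put in doubt, so they cannot decide whether libraries were paired. What limits these results is the conflict of markers with labels. None of the alternatives run here could remove it, because all of them kept the labels and no other grouping was run. The lack of counts is a further limit, which leaves the precision of low genes such as Chac1, Trib3 and Ern1 unknown.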
